A study of Mus musculus with 55 samples.

Results

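Cultured mouse neurons were depolarized with KCl for 180 min and their RNA was compared with that of basal neurons that had received no drug. This comparison rests on 5 of the 55 libraries of the series, namely the 2 libraries labelled KCl at 180 min and the 3 libraries labelled basal and not kept in tetrodotoxin. They were chosen by these labels alone, within a stimuli experiment of 27 libraries at 21 DIV (days in vitro). The other libraries of that experiment received KCl for 15 or 45 min, bicuculline (Bic), or withdrawal of tetrodotoxin, and a separate maturation experiment holds the remaining 28. The neurons were taken from cortex and hippocampus of CD1 mouse embryos at embryonic day 16 to 17.5, with both sexes mixed, and were plated at 80 cells per mm2 in 24-well plates. KCl was brought to 55 mM in the medium in which the cultures already stood, without silencing them first, and was left in place until RNA was taken at 180 min. Basal wells were handled alike with no drug, and no further agent was named for either group. The basal libraries were labelled 0 min, and no untreated library was labelled 180 min. In this comparison KCl and the time after handling therefore cannot be told apart. The methods group neurons of several ages around 21 DIV under that label.

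High extracellular potassium depolarizes the neuronal membrane and opens voltage-gated calcium channels. The calcium that enters activates kinases and the transcription factors CREB and SRF, which switch on immediate early genes without new protein synthesis. Many of these genes encode transcription factors, such as the AP-1 and NR4A families, and these in turn act on late-response genes for synaptic, secreted and signalling proteins. Stressed cells also draw on chaperones, amino acid carriers and the integrated stress response, in which ATF4 and a phosphatase subunit encoded by Ppp1r15a take part.

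The libraries were CEL-Seq2 libraries of 3′ ends, and the deposited values were counts per RefSeq transcript. For each gene the RefSeq transcript that held most of its counts was used. The 2 KCl libraries held 1276580 and 1795638 counts on genes, and the 3 basal libraries held 3474375, 2690089 and 2612643. Depth was thus lower in both KCl libraries than in every basal library. The labels do not say that replicates came from separate cultures. The p-values therefore measure the spread between replicate libraries, estimated over all 27 libraries of the experiment, and this spread may be technical. In the sample descriptions a letter precedes the well number, and it was A for both KCl libraries and basal replicates 1 and 2, and B for basal replicate 5. Neuron markers summed to 8660.2 and 8708 CPM (counts scaled to a common library size by TMM) in the KCl libraries and to between 7661 and 7867 CPM in the basal libraries. Astrocyte markers summed to 4244 and 4228 CPM against 3189 to 3784 CPM, so RNA of astrocytes was present in both groups. The summed microglia markers lay between 26.7 and 35.02 CPM in all 5 libraries, and 3 of the 12 had no count in any of them.

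Genes with more than 5 CPM in at least 2 libraries were tested with edgeR's quasi-likelihood test, in 1 fit over all 27 libraries with Benjamini-Hochberg adjustment. A gene was called at an adjusted p under 0.05 with a change of at least 1.5-fold. Of 12023 genes tested, 92 were called at KCl 180 min against basal (0.765%), of which 61 were higher (0.507%) and 31 were lower (0.258%). An unadjusted p under 0.05 was reached by 1499 genes, and the median log2 fold change over all genes was -0.01. The libraries of the 2 groups did not overlap for any of the 92 called genes, whereas 16.7% of all tested genes had both KCl libraries above every basal library and 16.4% had both below. The change was at least 2-fold for 35 of the genes that rose and for 20 of those that fell. An exact permutation test of 2 against 3 libraries cannot go below p = 0.1, so single genes were judged only by the fit across genes.

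The count of 92 calls changed when single libraries were left out. The count fell to 23 without KCl replicate 1, to 29 without KCl replicate 2, to 38 without basal replicate 1, to 59 without basal replicate 2 and to 49 without basal replicate 5, the 1 library with the letter B. With every library thinned to the smallest one, 30 genes were called. In all 5 fits that leave out 1 library 16 genes were called, namely Gm41127, Nr4a2, Fosb, Mylip, Hspa1b, Junb, Gadd45g, Arc, Nr4a1, Fos, Npas4, Slc38a2 and Nr4a3 among the rises and Sox10, Vmac and Hes5 among the falls. The calls of the other 76 genes were lost in at least 1 of these fits, and no called gene changed direction in any alternative.

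**Figure D1:**
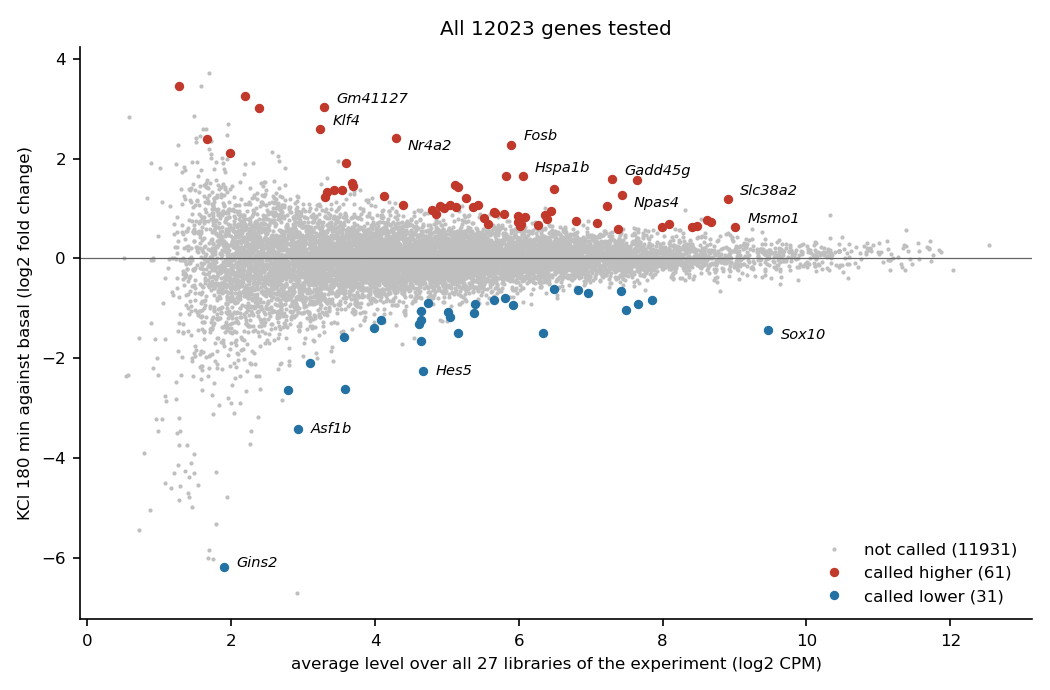
Log2 fold change of KCl 180 min against basal (y axis) plotted against the average level over the 27 libraries in log2 CPM (x axis) for the 12023 genes tested, with the 61 called higher in red, the 31 called lower in blue and the others in grey. The called genes span most of the range of levels, and the fitted value of Gins2, which had no count in either KCl library, depends on the prior count of the fit.

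Transcription factors of the immediate early class formed the largest group of rises among the gene lists. Of 33 genes listed 30 were tested, and 9 were called higher and 0 lower, with a median log2 fold change of 0.52 against -0.01 over all genes. The 9 were Fosb, Nr4a3, Nr4a2, Npas4, Junb, Klf4, Fos, Nr4a1 and Nfil3. When 1 library was left out, between 7 and 9 of the list were called higher, and with thinned libraries 8 were.

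Fosb, an AP-1 subunit, stood at 99.4 and 68.9 CPM in the KCl libraries and at 15.5, 17.9 and 18.2 CPM in the basal libraries. Fos, its best known relative, was at 116 and 122 CPM against 37.6, 48.0 and 51.2 CPM. Junb, a partner of both in AP-1 dimers, was at 91.3 and 75.2 CPM against 25.8, 23.5 and 30.3 CPM. For all of these AP-1 genes the lower KCl library lay far above the highest basal library. The log2 fold changes were 2.28 ± 0.24 (SE) for Fosb, 1.39 ± 0.21 for Fos and 1.64 ± 0.24 for Junb, with edgeR adjusted p of 9.95e-08, 8.96e-05 and 3.12e-05.

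The NR4A genes encode nuclear receptors that act without a known ligand, and all of them rose. Nr4a2 was at 42.8 and 43.6 CPM after KCl and at 8.03, 8.19 and 7.96 CPM in basal neurons. Nr4a1 was at 46.9 and 51.1 CPM against 17.2, 19.0 and 18.6 CPM. Nr4a3 was at 323 and 290.5 CPM against 153, 126 and 162 CPM. Replicates of Nr4a2 were nearly equal within each group, and no group overlapped with the other in any of the family. The log2 fold changes were 2.42 ± 0.30 for Nr4a2 (edgeR adjusted p = 2.22e-06), 1.43 ± 0.23 for Nr4a1 (adjusted p = 2.22e-04) and 1.06 ± 0.13 for Nr4a3 (adjusted p = 2.22e-06).

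Npas4, a neuronal bHLH-PAS factor that depends on calcium entry, was at 171 and 165 CPM against 81.4, 67.4 and 58.02 CPM, a log2 fold change of 1.28 ± 0.16 (edgeR adjusted p = 2.22e-06). Klf4, a Krüppel-like zinc finger factor, was at 20.2 and 31.6 CPM against 4.59, 4.10 and 4.17 CPM. The 2 KCl libraries differed more from each other for Klf4 than for Npas4, yet both lay above all basal libraries, and the log2 fold change was 2.60 ± 0.40 (edgeR adjusted p = 8.96e-05). Nfil3, a repressor of the bZIP class, had a smaller log2 fold change of 0.89 ± 0.20 (adjusted p = 0.0174).

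Other well known members did not pass the test. Egr1, a zinc finger factor used widely as an activity marker, was at 78.4 and 62.6 CPM against 70.0, 76.3 and 62.6 CPM, so that the groups overlapped. Jun was at 367 and 412 CPM against 329, 322 and 402 CPM. Egr4 was at 43.6 and 43.1 CPM against 34.4, 32.4 and 28.8 CPM, which did not overlap but gave an edgeR adjusted p of 0.369. Atf3, a stress-responsive bZIP factor, was at 73.5 and 56.8 CPM against 38.1, 60.0 and 47.4 CPM, with 1 KCl library below the highest basal library.

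**Figure D2:**
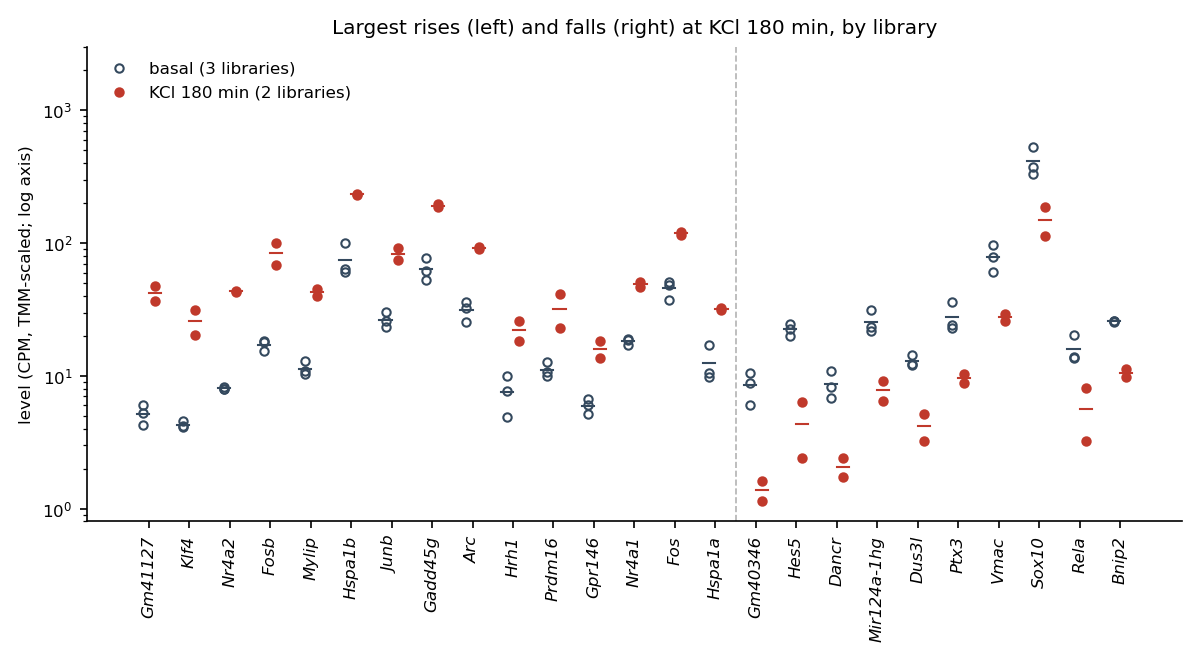
Level of each gene in CPM (log y axis) in the 3 basal libraries (open circles) and the 2 KCl 180 min libraries (filled circles), with short lines at the group means, for the 15 largest rises (left of the dashed line) and the 10 largest falls (right) among called genes with an average log2 CPM of at least 3. In each of these genes both KCl libraries lie on 1 side of all basal libraries.

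Promoter sequences of a few genes picked by hand are shown with matches to known motifs of calcium-activated factors, heat shock factor and the Notch pathway. They were taken from RefSeq on build GRCm38.p6 and run from 250 bases before the transcription start to 50 bases from it on, 5′ to 3′ on the strand of the gene. Motifs were searched on both strands. The CREB half-site TGACG, which also lies within the full element TGACGTCA, is in capitals for Fos (chr12:85473640-85473939, plus strand), Nr4a2 (chr2:57123954-57124253, minus strand), Npas4 (chr19:4989922-4990221, minus strand) and Ppp1r15a (chr7:45526219-45526518, minus strand):
Fos: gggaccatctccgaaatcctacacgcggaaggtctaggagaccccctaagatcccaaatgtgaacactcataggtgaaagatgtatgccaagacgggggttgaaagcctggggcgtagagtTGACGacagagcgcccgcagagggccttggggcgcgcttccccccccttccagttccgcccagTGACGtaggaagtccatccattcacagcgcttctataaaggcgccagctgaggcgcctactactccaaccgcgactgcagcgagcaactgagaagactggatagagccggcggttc
Nr4a2: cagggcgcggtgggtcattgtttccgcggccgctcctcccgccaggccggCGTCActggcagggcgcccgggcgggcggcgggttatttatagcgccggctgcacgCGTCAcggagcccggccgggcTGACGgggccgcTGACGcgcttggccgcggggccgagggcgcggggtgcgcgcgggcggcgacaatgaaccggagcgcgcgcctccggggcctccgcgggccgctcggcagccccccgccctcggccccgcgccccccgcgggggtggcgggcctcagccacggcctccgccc
Npas4: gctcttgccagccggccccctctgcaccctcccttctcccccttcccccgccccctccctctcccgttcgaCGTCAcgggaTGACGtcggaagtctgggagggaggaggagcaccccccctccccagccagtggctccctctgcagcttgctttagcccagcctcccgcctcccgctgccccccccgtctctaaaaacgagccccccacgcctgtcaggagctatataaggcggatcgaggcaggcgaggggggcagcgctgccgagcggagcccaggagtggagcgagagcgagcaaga
Ppp1r15a: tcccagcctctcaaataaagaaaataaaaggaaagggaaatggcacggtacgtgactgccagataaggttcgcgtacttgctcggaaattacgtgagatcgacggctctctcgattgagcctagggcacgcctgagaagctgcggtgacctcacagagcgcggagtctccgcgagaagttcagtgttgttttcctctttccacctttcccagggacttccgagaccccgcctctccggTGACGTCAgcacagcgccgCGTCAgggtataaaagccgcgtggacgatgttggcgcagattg

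TGACG was found in the windows of all 9 immediate early factors called higher, and in 9 of the 13 of that list that were tested, not called and had a promoter in the table. It was present in 36.1% of the 9598 tested genes with a promoter, in 49.1% of 55 genes called higher and in 29.6% of 27 called lower, and in 20.8% of all 32851 promoters. The full element TGACGTCA was rarer, at 1.79% of all promoters, and was found in the Ppp1r15a window but in none of the 9 factors. Fos held matches whose first bases lie 129 and 66 bases upstream of the start, and Nr4a2 held 4, between 200 and 111 bases upstream. A match describes letters in the window and not a bound site.

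Among 40 tested genes for activity-regulated signalling and synaptic effectors, 4 were called higher and 0 lower, with a median log2 fold change of 0.23. Arc, which couples synaptic activity to the removal of AMPA receptors, was at 92.9 and 90.1 CPM against 25.5, 35.7 and 32.2 CPM, with a log2 fold change of 1.56 ± 0.20 (edgeR adjusted p = 2.41e-06). Rasl11b, a small Ras-like GTPase, rose by 0.86 ± 0.18 on the log2 scale, Pcsk1, a convertase of prohormones, by 0.69 ± 0.17, and Fbxo33, an F-box protein of ubiquitin ligases, by 0.66 ± 0.16. Between 1 and 5 of the list were called when 1 library was left out, and 1 with thinned libraries.

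Several activity-regulated genes that the study names were not called at 180 min of KCl. Bdnf, a neurotrophin, was at 1013 and 843 CPM against 647, 798 and 413 CPM, a log2 fold change of 0.58 ± 0.18 (edgeR adjusted p = 0.128). Its KCl libraries both lay above the basal libraries, but basal replicate 5 was far below the other 2. Ptgs2, which makes prostaglandins, was at 58.2 and 66.0 CPM against 54.2, 79.3 and 43.2 CPM and overlapped with basal. Homer1, a postsynaptic scaffold gene, was at 221 and 215 CPM against 180.1, 193 and 200.2 CPM, a log2 fold change of 0.19 ± 0.15 (adjusted p = 0.651). The log2 fold changes of Ccdc184 (0.60 ± 0.18), Igf1 (0.44 ± 0.23), Rasl11a (0.10 ± 0.38) and Btg2 (0.06 ± 0.23) did not pass either.

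Of 30 tested feedback inhibitors of kinase signalling and growth, 2 were called higher and 0 lower, and the median log2 fold change was 0.17. Gadd45g, a small stress-induced protein of the GADD45 family, was at 196 and 187 CPM against 61.6, 76.7 and 52.3 CPM, a log2 fold change of 1.59 ± 0.19 (edgeR adjusted p = 2.22e-06). Gadd45b was at 20.2 and 16.6 CPM against 7.17, 5.59 and 9.10 CPM, with 1.32 ± 0.32 on the log2 scale (adjusted p = 0.0325). Neither pair of KCl values overlapped with basal. The dual specificity phosphatases of the list, Dusp1 and Dusp6 among them, had log2 fold changes of 0.20 and 0.43 and did not pass.

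Among 26 tested heat shock chaperones, the stress-inducible Hsp70 genes Hspa1a and Hspa1b were the 2 called higher, and 0 were lower. Hspa1b was at 230.3 and 236 CPM against 61.1, 63.7 and 99.4 CPM, and basal replicate 5 was the highest of the basal libraries. Hspa1a was at 32.3 and 31.6 CPM against 9.75, 10.4 and 17.1 CPM, with the same basal library highest. Their log2 fold changes were 1.65 ± 0.22 and 1.37 ± 0.33 (edgeR adjusted p = 9.33e-06 and 0.0309). The list median was 0.14, and the constitutive chaperone Hsp90ab1 (1149.7 and 1141 CPM against 1009, 993 and 1008 CPM) and the co-chaperone Dnajb1 (75.1 and 75.8 CPM against 64.8, 67.4 and 80.4 CPM) did not pass.

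The genes Hspa1a and Hspa1b are near-identical neighbours on chromosome 17, and their counts can share reads. The promoter windows of Hspa1b (chr17:34959189-34959488, minus strand) and Hspa1a (chr17:34972107-34972406, minus strand) agreed at 296 of 300 bases (98.7%). Each held 1 pair of inverted heat shock units, written GAANNTTC with N for any base and in capitals here, 104 bases upstream of the start, and 7.86% of all promoters held such a pair:
Hspa1b: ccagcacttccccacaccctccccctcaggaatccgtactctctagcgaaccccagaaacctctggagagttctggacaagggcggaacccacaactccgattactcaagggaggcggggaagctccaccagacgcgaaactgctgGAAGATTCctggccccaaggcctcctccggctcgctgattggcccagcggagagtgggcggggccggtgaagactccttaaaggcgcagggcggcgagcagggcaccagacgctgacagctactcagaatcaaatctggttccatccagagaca
Hspa1a: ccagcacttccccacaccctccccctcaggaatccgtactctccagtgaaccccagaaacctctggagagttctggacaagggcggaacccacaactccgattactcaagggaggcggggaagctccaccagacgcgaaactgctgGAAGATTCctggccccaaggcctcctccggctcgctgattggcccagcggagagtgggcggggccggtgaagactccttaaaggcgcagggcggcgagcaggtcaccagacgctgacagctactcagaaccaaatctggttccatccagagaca

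Of 29 tested genes of the ATF4 amino acid stress response, 2 were called higher and 0 lower. Ppp1r15a, the regulatory subunit that directs a phosphatase to the initiation factor eIF2, was at 128 and 115 CPM against 64.8, 60.3 and 52.3 CPM, a log2 fold change of 1.03 ± 0.20 (edgeR adjusted p = 0.00369). Atf4 itself was at 667 and 554 CPM against 391, 436 and 352 CPM, a log2 fold change of 0.63 ± 0.13 (adjusted p = 0.00593). Other members of the list did not pass, among them Asns, which makes asparagine and was at 121 and 101 CPM against 88.0, 114 and 88.7 CPM. Ddit3, the factor CHOP, was at 53.3 and 55.7 CPM against 49.6, 51.0 and 69.4 CPM and overlapped likewise. The median of the list was 0.18, and 0 to 2 of its members were called when 1 library was left out.

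Slc38a2, a sodium-coupled carrier of neutral amino acids, was the 1 called gene among 15 tested osmolyte carriers and osmotic response genes. It was at 1004 and 954 CPM in the KCl libraries and 397, 446 and 454 CPM in the basal libraries, a log2 fold change of 1.18 ± 0.19 (edgeR adjusted p = 2.90e-04). The related carrier Slc38a1 was at 113 and 99.9 CPM against 105, 92.7 and 95.6 CPM. Slc6a6, the taurine carrier, and Nfat5, the factor that answers to hypertonic medium, had log2 fold changes of 0.53 and 0.60 and were not called.

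In metabolism, 2 of 25 tested cholesterol synthesis genes were called higher and 0 lower, with a median of 0.33. Of the 25, 22 were above 0, beside 5848 of all 12023 genes. Msmo1, which removes methyl groups from sterols, was at 837 and 884 CPM against 574, 589 and 501 CPM, a log2 fold change of 0.63 ± 0.13 (edgeR adjusted p = 0.0134). Cyp51, a sterol demethylase of the same pathway, was at 266 and 235 CPM against 152, 181 and 123 CPM, a log2 fold change of 0.71 ± 0.17 (adjusted p = 0.0239). Pfkfb3, which makes the activator of phosphofructokinase, was the 1 gene called higher of 30 tested for glycolysis and hypoxia, with a log2 fold change of 0.89 ± 0.22 (adjusted p = 0.0392). Between 0 and 2 of the cholesterol genes, and 0 of the glycolysis genes, were called when 1 library was left out. At KCl 180 min in the maturation experiment the cholesterol median was 0.01, with 1 of 25 tested called higher and 2 lower. Of 31 glycolysis and hypoxia genes tested there, 8 were called higher and 0 lower.

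Of the 92 called genes, 27 were in a list and 65 were in none. Of the 15 largest rises among called genes with an average log2 CPM of at least 3, some were outside the lists. Gm41127, a predicted gene on chromosome 14 (chr14:32140431-32144811), was at 36.4 and 47.6 CPM against 4.30, 5.21 and 6.07 CPM, a log2 fold change of 3.03 ± 0.32 (edgeR adjusted p = 1.04e-07). Mylip, a ubiquitin ligase that targets lipoprotein receptors, was at 45.2 and 40.2 CPM against 10.3, 10.8 and 12.9 CPM, with a log2 fold change of 1.91 ± 0.26 (adjusted p = 1.24e-05). Both genes had KCl values at least 3 times the highest basal value. The histamine receptor gene Hrh1 (1.51 ± 0.34), the zinc finger factor Prdm16 (1.48 ± 0.35) and the orphan receptor gene Gpr146 (1.45 ± 0.35) also rose, from basal levels of 12.6 CPM or lower in every library.

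Called genes with few counts were left out of the named genes, and a pair of them is given here, chosen after their values were seen. Zglp1, a GATA-like zinc finger gene, was at 11.3 and 11.5 CPM against 0.86, 1.49 and 1.14 CPM, and Ppara, the nuclear receptor of fatty acid oxidation, was at 7.27 and 11.5 CPM against 1.15, 1.86 and 0.379 CPM. Chromatin regulators and a transcription factor with larger counts were also among the rises, again named after their values were seen. Chd2, a chromatin remodeller, was at 128 and 72.9 CPM against 46.7, 54.4 and 55.0 CPM. Kdm5b, a demethylase of histone H3, had a log2 fold change of 0.82 ± 0.19, Ankrd11, a chromatin regulator, of 0.95 ± 0.23, and Klf9, a Krüppel-like factor, of 0.73 ± 0.18. Of 89 called genes found in GENCODE, 23 were overlapped by another annotated gene on the same strand, mostly predicted genes or small RNAs, and reads of such pairs cannot be assigned with certainty.

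The falls included genes of progenitor and glial identity. Hes5, the bHLH repressor through which Notch acts, was at 2.42 and 6.32 CPM in the KCl libraries and at 22.6, 20.1 and 24.6 CPM in the basal libraries, and the basal values were at least 3 times the higher KCl value. Its log2 fold change was -2.26 ± 0.34 (edgeR adjusted p = 6.64e-05), and it was the 1 called gene of 16 tested Notch targets and ID factors. Hes1, a sister gene, was at 4.85 and 8.61 CPM against 11.5, 17.1 and 14.0 CPM, which did not overlap but gave an adjusted p of 0.22. The Hes5 window (chr4:154960673-154960972, plus strand) held the core GTGGGAA of the site of RBPJ, the DNA-binding partner of Notch, in capitals at 226 and 83 bases upstream of the start. This core was present in 6.38% of all promoters:
Hes5: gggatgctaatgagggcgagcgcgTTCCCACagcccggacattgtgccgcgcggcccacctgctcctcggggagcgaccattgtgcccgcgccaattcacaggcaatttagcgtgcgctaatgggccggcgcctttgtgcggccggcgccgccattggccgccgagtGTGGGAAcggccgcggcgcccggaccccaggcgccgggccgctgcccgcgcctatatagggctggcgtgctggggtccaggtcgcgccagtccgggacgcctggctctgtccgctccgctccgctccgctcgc

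Sox10 and Olig2, transcription factors of the oligodendrocyte lineage, were the 2 called genes of 11 tested markers of that lineage, and both were lower. Sox10 was at 113 and 188 CPM against 329, 534 and 376 CPM, a log2 fold change of -1.44 ± 0.18 (edgeR adjusted p = 3.02e-06). Olig2 was at 73.5 and 74.6 CPM against 130.2, 161 and 104 CPM, a log2 fold change of -0.83 ± 0.18 (adjusted p = 0.0173). The remaining markers did not pass. Olig1 was at 145 and 137 CPM against 158, 214 and 105 CPM, and Pdgfra, the receptor of oligodendrocyte precursors, was at 178 and 124 CPM against 128, 189.5 and 91.0 CPM, both overlapping between groups. Mbp, a myelin protein gene, was at 39.6 and 37.9 CPM against 27.2, 35.7 and 34.5 CPM, with both KCl libraries above basal. The 14 listed markers summed to 660.1 and 679.7 CPM in the KCl libraries and to between 827 and 1273 CPM in the basal libraries, and 1 of them had no count in any of the 5. Without Sox10 and Olig2 the other 12 summed to 473 and 417 CPM in the KCl libraries and to 449, 578 and 347 CPM in the basal libraries, which overlapped. The part of that lineage in these falls was not tested. In bulk RNA fewer cells of a type and less RNA per cell cannot be told apart.

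Some of the falls were noncoding RNAs, whose share among the falls, the rises or all genes was not counted. The host gene of microRNA 124, Mir124a-1hg, which is typical of neurons, was at 6.46 and 9.19 CPM against 23.2, 21.6 and 31.5 CPM, a log2 fold change of -1.65 ± 0.32 (edgeR adjusted p = 0.00473). Dancr, a long noncoding RNA that hosts a small nucleolar RNA, was at 2.42 and 1.72 CPM against 10.9, 8.19 and 6.83 CPM, with -2.08 ± 0.51 on the log2 scale (adjusted p = 0.038). Miat, a nuclear long noncoding RNA named here after its values were seen, was at 77.6 and 86.1 CPM against 179.8, 160.5 and 161 CPM, with -1.03 ± 0.18 (adjusted p = 9.54e-04). Each lay below every basal library in both KCl libraries.

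The other large falls had no common role in the lists. Vmac, a coiled-coil protein that binds vimentin-type filaments, was at 25.9 and 29.3 CPM against 78.3, 60.3 and 95.9 CPM, a log2 fold change of -1.49 ± 0.23 (edgeR adjusted p = 8.96e-05). Ptx3, a secreted pentraxin of innate immunity, was at 8.89 and 10.3 CPM against 22.9, 35.7 and 24.3 CPM, and Rela, the p65 subunit of NF-κB, was at 3.23 and 8.04 CPM against 13.8, 20.5 and 13.7 CPM. Their log2 fold changes were -1.496 ± 0.326 and -1.40 ± 0.35 (adjusted p = 0.0151 and 0.045). Bnip2, which encodes a BCL2-interacting protein (-1.31 ± 0.28), Dus3l, a tRNA dihydrouridine synthase gene (-1.57 ± 0.40), and the predicted gene Gm40346 (-2.61 ± 0.59) completed the 10 largest falls.

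Derl3, which takes part in the removal of misfolded proteins from the endoplasmic reticulum, was the 1 called gene of 23 tested for folding in that compartment, at 0.808 and 1.72 CPM against 10.9, 5.96 and 8.72 CPM. A pair of replication genes of low level, named after their values were seen, also fell. Asf1b, a histone chaperone, was at 0 and 1.15 CPM against 9.17, 7.82 and 5.69 CPM. Gins2, a subunit of the GINS complex of replication forks, had no count in either KCl library and was at 4.30, 3.35 and 4.17 CPM in the basal libraries. Taken against a floor of 3 counts over both KCl libraries together, Gins2 was at least 4.04-fold lower after KCl. These 3 genes rested on 0 to 3 counts in each KCl library.

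**Figure D3:**
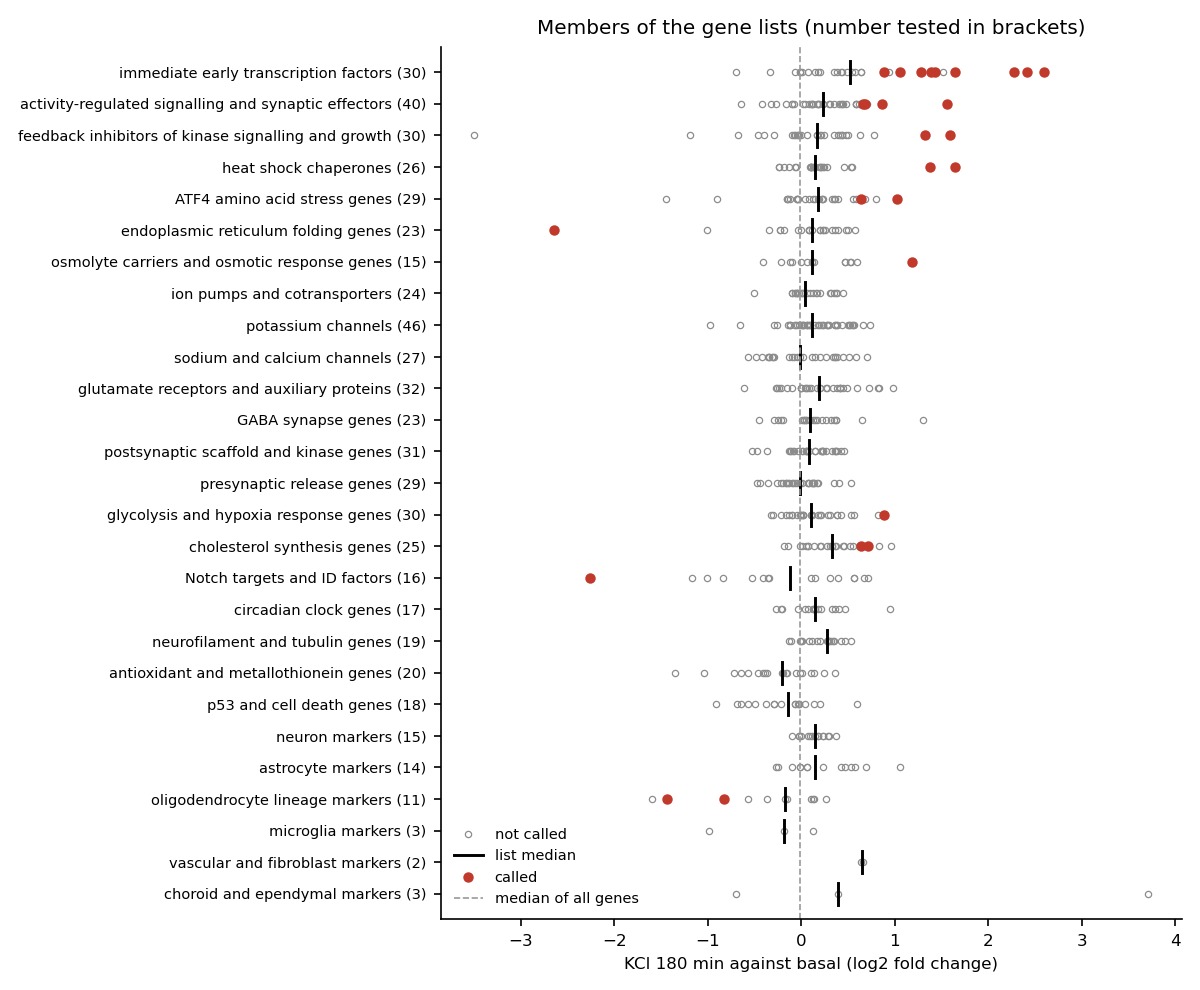
Log2 fold change of KCl 180 min against basal (x axis) of every tested member of the gene lists (rows, number tested in brackets), with called genes as filled red points, others as open points, the median of each list as a black bar and the median of all genes as a dashed line. Called genes cluster in the upper rows of activity and stress genes, while the rows of channels, receptors and synaptic genes hold none.

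Lists for the machinery of excitability and of synapses held no called gene in the stimuli experiment. None of 46 potassium channel genes, 27 sodium and calcium channel genes, 24 ion pumps and cotransporters, 32 glutamate receptor genes, 23 GABA synapse genes, 31 postsynaptic genes and 29 presynaptic genes was called by the quasi-likelihood test of edgeR. At an unadjusted p under 0.05 there were 9, 8, 2, 8, 7, 4 and 2 of them. DESeq2 called 1 of the potassium channel genes and 1 of the sodium and calcium channel genes, and 0 in the others. The likelihood ratio test of edgeR called 1 potassium channel gene, 1 glutamate receptor gene and 1 GABA synapse gene higher and 1 potassium channel gene lower. Without the filter on low counts, and with only the groups compared, 1 gene of each of these 3 lists was called higher. With counts summed over transcripts 1 potassium channel gene was called lower. The medians lay between -0.02 for sodium and calcium channels and 0.18 for glutamate receptors. Kcnq3, a channel subunit of the M-current, was at 133 and 137 CPM against 74.5, 92.7 and 89.5 CPM, a log2 fold change of 0.66 ± 0.18 (adjusted p = 0.0727). Gria4, an AMPA receptor subunit, was at 63.8 and 59.7 CPM against 37.3, 32.02 and 34.9 CPM (0.82 ± 0.23, adjusted p = 0.0745), and the pump subunit Atp1b1 was at 2932 and 2722 CPM against 2313, 2282 and 2279.9 CPM (0.30 ± 0.11, adjusted p = 0.195). These values did not overlap between groups, but the changes did not pass the test.

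Clock, cytoskeletal, antioxidant and cell death genes gave no called gene either. The 2 smallest p in each list belonged to Ciart (0.95 ± 0.34) and Nr1d1 (0.47 ± 0.20) for 17 clock genes, Gap43 (0.53 ± 0.17) and Tuba1b (0.46 ± 0.15) for 19 neurofilament and tubulin genes, Mt2 (-0.64 ± 0.21) and Srxn1 (-0.57 ± 0.20) for 20 antioxidant genes, and Hrk (-0.91 ± 0.31) and Tnfrsf12a (-0.57 ± 0.33) for 18 p53 and cell death genes. The smallest edgeR adjusted p among these genes was 0.128 for Gap43, and unadjusted p under 0.05 were held by 3, 8, 6 and 1 members. DESeq2 called none of them. A clock gene was called higher without the filter on low counts, with the replicate block, with the letter as covariate and without basal replicate 5. The letter term was fitted by basal replicate 5 alone, as was 1 term of the block, so those settings set the same library aside. A neurofilament or tubulin gene was called higher without basal replicate 2, and an antioxidant gene was called lower without the filter and with only the groups compared. The medians were 0.15, 0.28, -0.20 and -0.14 in the same order. Neuron markers had a median log2 fold change of 0.15 with 0 of 15 called, and astrocyte markers 0.15 with 0 of 14 called, with Aldoc at 1366 and 1329 CPM against 931, 951 and 841 CPM. For Aldoc the edgeR adjusted p was 0.0471, but its change of 0.57 on the log2 scale was under 1.5-fold. DESeq2 called 2 of the astrocyte markers higher, and 1 was called higher by edgeR with RLE size factors, with the likelihood ratio test, without the filter and with only the groups compared. The summed vascular and fibroblast markers were at 44.4 and 49.4 CPM in the KCl libraries and between 26.4 and 33.4 CPM in the basal libraries, and the choroid and ependymal markers lay between 9.70 and 12.6 CPM in all 5. The part of any of these markers in the results was not tested.

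The time of stimulation was examined by testing KCl 180 min directly against KCl 15 min and 45 min (2 libraries each). All libraries at 15 and 45 min carried the letter B in their descriptions and both at 180 min the letter A, so the letter and the time cannot be told apart within KCl. Basal was the only group with both letters. A letter term therefore rests on basal replicate 5 alone and cannot separate the letter from the time. Against 15 min, 446 genes were called (3.71%), 191 higher at 180 min (1.59%) and 255 lower (2.12%). With the letter as a covariate, which the basal libraries allow, 157 were called, and between 119 and 188 when 1 library was left out, the lowest without KCl 180 min replicate 2. Against 45 min, 17 genes were called (0.141%), 11 higher (0.0915%) and 6 lower (0.0499%). With the covariate 5 were called, and 6 or 7 without any 1 of the 4 libraries.

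Ppp1r15a was at 29.7 and 36.5 CPM at 15 min, at 35.97 and 50.0 CPM at 45 min and at 128 and 115 CPM at 180 min. It exceeded 15 min by 1.86 ± 0.23 on the log2 scale (edgeR adjusted p = 1.20e-06) and 45 min by 1.498 ± 0.227 (adjusted p = 3.46e-04). Klf4 was at 3.25 and 8.11 CPM, 5.19 and 2.96 CPM and 20.2 and 31.6 CPM in the same order, with differences of 2.15 ± 0.43 against 15 min (adjusted p = 0.00217) and 2.65 ± 0.46 against 45 min (adjusted p = 0.00215). Both genes were thus highest in the late libraries, and neither overlapped with the earlier ones.

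Hspa1b was at 87.4 and 73.3 CPM at 15 min and 67.9 and 53.4 CPM at 45 min, and was higher at 180 min than at 45 min by 1.94 ± 0.26 on the log2 scale (edgeR adjusted p = 2.68e-05). Mylip was at 16.7 and 17.2 CPM and 15.2 and 8.05 CPM, and exceeded 45 min by 1.85 ± 0.30 (adjusted p = 7.79e-04). Nr4a2 was at 14.2 and 27.1 CPM and 11.5 and 16.5 CPM, and exceeded 45 min by 1.63 ± 0.32 (adjusted p = 0.00881). Ciart, a clock gene that was not called against basal, exceeded 15 min by 2.06 ± 0.41 (adjusted p = 0.00201), with 15.0 and 12.8 CPM then and 36.4 and 76.4 CPM at 180 min.

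Among genes that were much higher at 15 min was Krt6a, a keratin gene, at 435 and 464 CPM then and 39.6 and 15.5 CPM at 180 min. Fndc9 was at 134 and 128 CPM against 15.4 and 15.5 CPM, and Acan, the core protein of perineuronal nets, at 230.5 and 221 CPM against 35.5 and 39.04 CPM. The 180 min values of Fndc9 and Acan lay within the range of the basal libraries. On the log2 scale they differed from 15 min by -4.10 ± 0.32, -3.08 ± 0.33 and -2.59 ± 0.27 (edgeR adjusted p = 1.73e-11, 6.89e-08 and 4.83e-08). Arc was at 325 and 399.5 CPM at 15 min, 81.2 and 108 CPM at 45 min and 92.9 and 90.1 CPM at 180 min, and was lower at 180 than at 15 min by a log2 difference of -1.99 ± 0.19 (adjusted p = 6.77e-09).

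Of the genes lower at 180 than at 45 min, Hes5 was at 18.9 and 21.2 CPM, Sox10 at 489 and 421 CPM and Olig2 at 135 and 154 CPM at 45 min. Their log2 differences were -2.09 ± 0.36, -1.58 ± 0.20 and -0.96 ± 0.20 (edgeR adjusted p = 0.00215, 1.12e-05 and 0.0148). Anks1, an ankyrin repeat adaptor, and Vash1, an enzyme that trims tubulin, were also lower, by -1.20 ± 0.22 and -1.02 ± 0.19. The levels of all of these at 45 min lay above both late libraries.

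**Figure D4:**
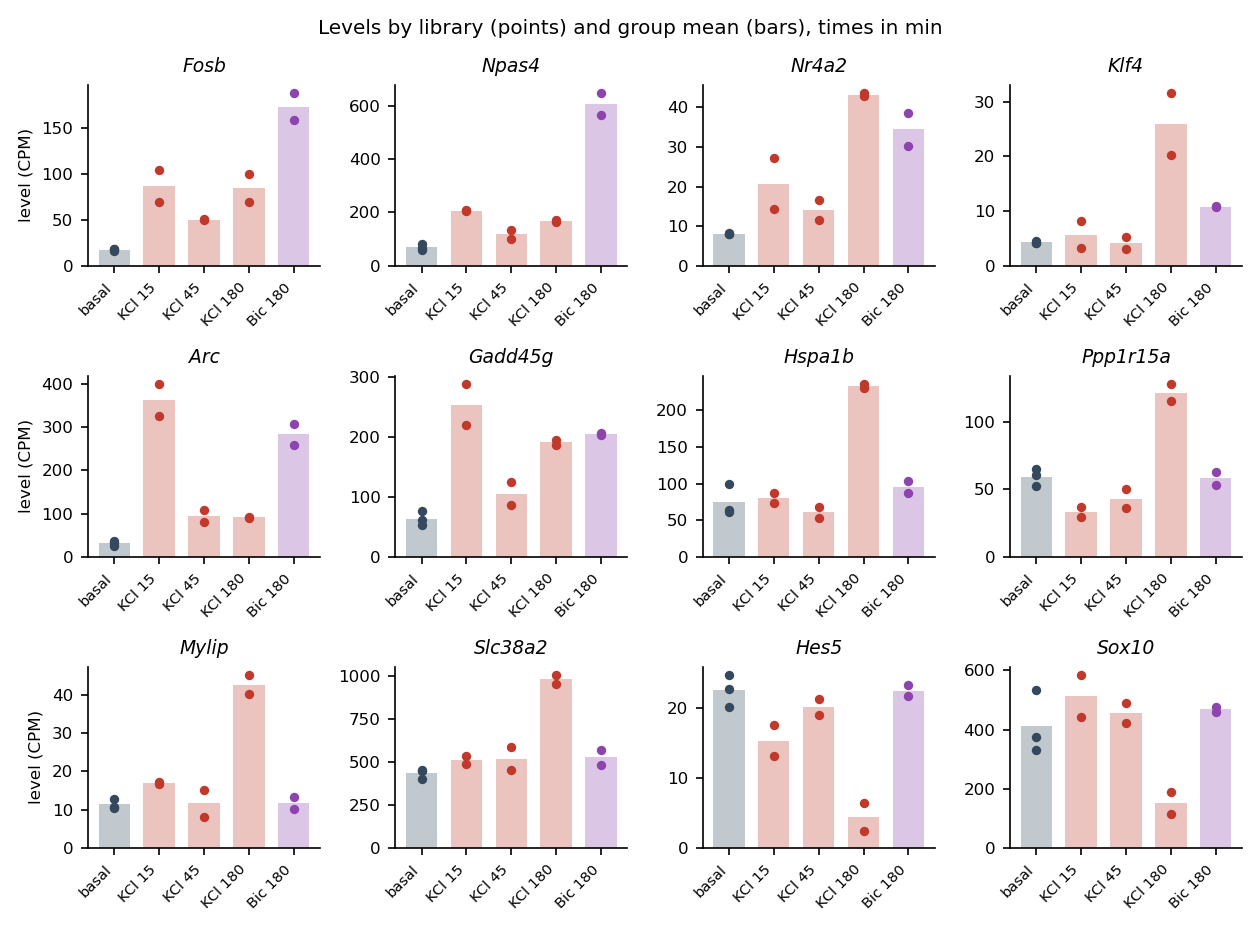
Level in CPM (y axis, from 0) of 12 genes in basal neurons (3 libraries), after KCl for 15, 45 and 180 min and after Bic for 180 min (2 libraries each), with points for libraries and bars for group means. Fosb, Npas4, Arc and Gadd45g are high at 15 min already, Hspa1b, Ppp1r15a, Mylip and Slc38a2 are highest at KCl 180 min, and Hes5 and Sox10 are lowest there.

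To compare KCl with another stimulus at the same time, KCl 180 min was tested against Bic 180 min. Which property of either stimulus lay behind a difference was not tested. Bic here is bicuculline at 50 μM, a blocker of GABA-A receptors, without 4-aminopyridine, and its 2 libraries carried the letter A and held 3447257 and 3907601 counts on genes. Between these groups 88 genes were called (0.732%), 36 higher with KCl (0.299%) and 52 lower (0.433%). The count was 54 with thinned libraries, 27 with counts summed over transcripts and between 21 and 28 when 1 library was left out, the lowest without KCl replicate 1.

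Activity genes were lower with KCl than with Bic in several cases. The AP-1 genes Fosb, Junb and Fos differed by -1.06 ± 0.22, -0.95 ± 0.23 and -0.88 ± 0.22 on the log2 scale (edgeR adjusted p = 0.00826, 0.0341 and 0.0352). Npas4 was at 171 and 165 CPM with KCl and 647 and 567 CPM with Bic, a log2 difference of -1.85 ± 0.17 (edgeR adjusted p = 6.78e-10). Arc was at 92.9 and 90.1 CPM against 308 and 258 CPM, a difference of -1.63 ± 0.19 (adjusted p = 5.25e-07). Egr4 was at 43.6 and 43.1 CPM against 211 and 212 CPM, and Atf3 at 73.5 and 56.8 CPM against 309 and 258 CPM, with differences of -2.29 ± 0.20 and -2.13 ± 0.21 (adjusted p = 2.64e-10 and 1.01e-08). Gm13889, a predicted gene, had a difference of -2.41 ± 0.19, at 54.1 and 67.7 CPM against 319 and 335 CPM.

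Other activity genes did not pass this test. Nr4a2 differed by 0.32 ± 0.28 (adjusted p = 0.755), Nr4a3 by -0.07 ± 0.14 (adjusted p = 0.909) and Gadd45g by -0.11 ± 0.20 (adjusted p = 0.907). A p that misses the threshold does not show that both stimuli acted alike.

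Higher with KCl than with Bic were Mylip, at 45.2 and 40.2 CPM against 10.1 and 13.3 CPM (log2 difference 1.85 ± 0.29, edgeR adjusted p = 1.35e-04), and Gm41127, at 36.4 and 47.6 CPM against 13.4 and 10.4 CPM (1.83 ± 0.32, adjusted p = 0.00121). Hspa1b was at 230.3 and 236 CPM against 103 and 87.8 CPM, a difference of 1.29 ± 0.24 (adjusted p = 0.00323). Slc38a2 was at 1004 and 954 CPM against 570.4 and 479.8 CPM (0.90 ± 0.21, adjusted p = 0.0315), and Ppp1r15a at 128 and 115 CPM against 62.6 and 53.1 CPM (1.07 ± 0.22, adjusted p = 0.00697). Casp8ap2, Prdm16 and Tent4b completed the 5 largest of this direction among genes with an average log2 CPM of at least 3, with differences of 1.80 ± 0.38, 1.72 ± 0.39 and 1.495 ± 0.335. Hes5 was at 23.2 and 21.6 CPM with Bic, at basal level, and differed by -2.25 ± 0.35 (adjusted p = 1.45e-04), while Sox10 was at 477 and 460.1 CPM and differed by -1.62 ± 0.20 (adjusted p = 7.62e-07).

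The comparisons of KCl 15 min, KCl 45 min and Bic 180 min with basal share the 3 basal libraries with that of KCl 180 min, so their values are only set side by side. KCl 15 min gave 869 called genes (7.23%), with 4.53% of genes higher and 2.69% lower. KCl 45 min gave 92 (0.765%), with 0.607% higher and 0.158% lower, and Bic 180 min gave 92 (0.765%), with 0.690% higher and 0.0749% lower. With every library thinned to the smallest one, these counts were 434, 36 and 80, beside 30 at KCl 180 min. Of the immediate early factors, 15, 5 and 17 were called higher, beside 9 at KCl 180 min. Of the effectors, 23, 7 and 12 were called higher, beside 4 at KCl 180 min. Fos had log2 fold changes of 0.87 ± 0.21, 0.59 ± 0.21 and 2.27 ± 0.20 against basal in the same order, beside 1.39 ± 0.21 at KCl 180 min.

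An independent set of libraries was available in the maturation experiment, in which neurons labelled 23 DIV received 55 mM KCl for 180 min (n = 3) beside their own basal cultures (n = 3). There, 573 of 11742 genes tested were called (4.88%), 350 higher (2.98%) and 223 lower (1.90%). Of the 61 genes called higher in the stimuli experiment 59 were tested there, of which 54 had the same direction and 30 (50.8%) were called higher, with 0 called lower. Over all 11285 genes tested in both experiments, 55.2% had the same direction. Of the 31 called lower all were tested, of which 19 had the same direction, a share near that over all genes, while 3 (9.68%) were called lower and 1 was called higher. Seen from the other side, the 30 made up 8.80% of the 341 genes called higher there and tested here, and the 3 made up 1.38% of 217 called lower. The median log2 fold change there was 0.78 for the genes called higher here and -0.09 for those called lower here. The count of 573 rose to 883 without KCl replicate 1 of that experiment and fell to 234 without KCl replicate 2, to 246 without KCl replicate 3, to 314 without basal replicate 2 and to 275 without basal replicate 3.

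Fos was at 72.2, 195 and 223 CPM after KCl and at 21.6, 11.3 and 12.1 CPM in basal neurons of the maturation experiment, a log2 fold change of 3.45 ± 0.30 (edgeR adjusted p = 6.20e-09). Klf4 was at 12.3, 23.9 and 16.3 CPM against 2.08, 0.894 and 0.221 CPM, a log2 fold change of 4.12 ± 0.54 (adjusted p = 1.67e-05). Hspa1b was at 138, 230.4 and 198 CPM against 22.5, 28.1 and 29.1 CPM, a log2 fold change of 2.82 ± 0.21 (adjusted p = 4.28e-10). In each gene all 3 KCl libraries lay above all 3 basal libraries, and KCl replicate 1 was the lowest of them.

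Among the list genes, 17 of 29 tested immediate early factors were called higher and 1 lower there, and 13 of 30 tested ATF4 genes were called higher. Ppp1r15a rose by 2.37 ± 0.20 on the log2 scale (edgeR adjusted p = 6.20e-09). Lists without a call in the stimuli experiment held some at 23 DIV. Called lower were 6 of 18 neurofilament and tubulin genes, 5 of 47 potassium channel genes and 3 of 31 postsynaptic genes. Called higher were 3 of 17 clock genes and 3 of 18 p53 and cell death genes. The neurofilament and tubulin median was -0.34 there, beside 0.28 in the stimuli experiment. Some of the strongest rises of the stimuli experiment were not called at 23 DIV. Slc38a2 was at 475, 228 and 346 CPM against 145, 389 and 381 CPM, with basal replicate 1 far below the other 2 and the groups overlapping (log2 fold change 0.19 ± 0.23, adjusted p = 0.687). Arc was at 178, 127 and 162 CPM against 75.8, 80.7 and 98.8 CPM, which did not overlap (0.87 ± 0.32, adjusted p = 0.112), and Mylip at 26.9, 21.4 and 15.1 CPM against 9.34, 17.4 and 12.1 CPM (0.72 ± 0.31, adjusted p = 0.174).

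The 3 falls called in both experiments were Hes5, Mir124a-1hg and Miat. Hes5 was at 5.26, 2.24 and 0.472 CPM against 13.1, 15.9 and 26.3 CPM at 23 DIV, a log2 fold change of -2.76 ± 0.49 (edgeR adjusted p = 7.88e-04). Mir124a-1hg was at 10.3, 15.8 and 16.5 CPM against 34.2, 54.9 and 62.2 CPM (-1.83 ± 0.28, adjusted p = 1.59e-04), and Miat had a log2 fold change of -0.73 ± 0.14 (adjusted p = 0.00149). Sox10 was at 281, 686 and 707 CPM against 880.1, 1585 and 1486 CPM, so that all KCl libraries lay below all basal ones, but its log2 fold change of -1.24 ± 0.41 had an adjusted p of 0.0687. Ptx3 was the gene called in opposite directions, at 1.75, 6.34 and 7.55 CPM against 2.42, 0.537 and 1.66 CPM at 23 DIV (1.71 ± 0.48, adjusted p = 0.0289).

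**Figure D5:**
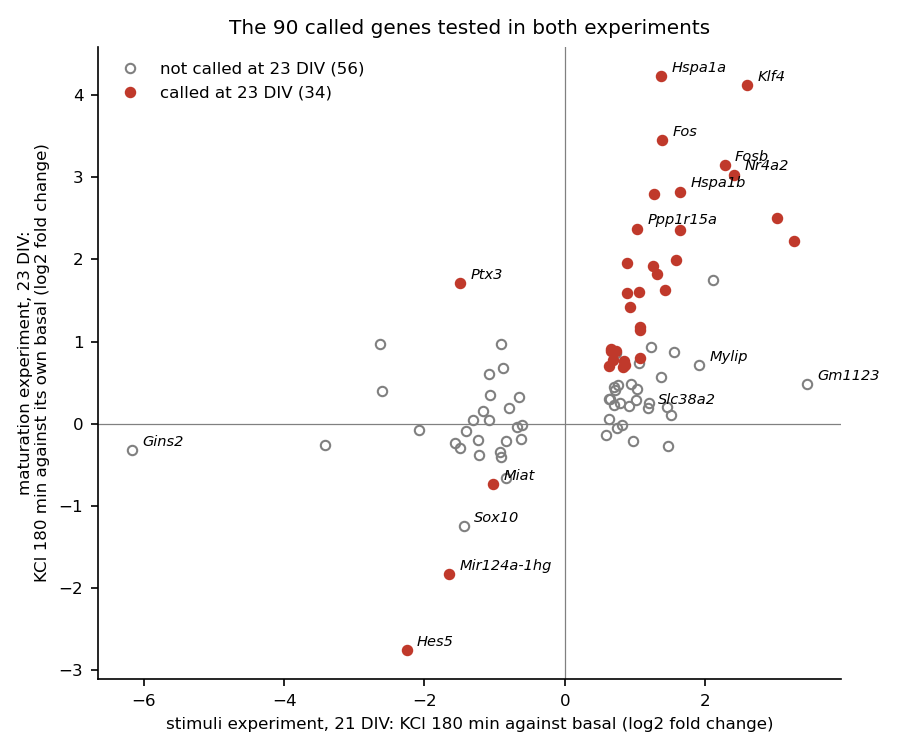
Log2 fold change of KCl 180 min against basal in the stimuli experiment (x axis) and in the maturation experiment against its own basal (y axis) for the 90 genes called in the first and tested in both, with the 34 called at 23 DIV filled. Genes on the right lie mostly above 0, while those on the left mostly scatter around 0. Among those on the left, Hes5, Mir124a-1hg, Sox10 and Miat lie below 0, and Ptx3, called higher at 23 DIV, lies above 0.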

How the data were processed

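CEL-Seq2 libraries of 3′ ends were sequenced by the authors, aligned with STAR to mm10 and counted per RefSeq transcript, separately by strand; whether molecular identifiers were collapsed is not given in the sources used here. The deposited values were raw counts. Transcripts were matched to genes by RefSeq accession without its version (80.9% of 96722 transcripts in the stimuli experiment and 80.8% of 97700 in the maturation experiment). The unmatched transcripts held 19.3% and 18.5% of counts. Each gene was taken as its transcript with the most counts, since counts summed over transcripts came to 3.29 times as many. Sequences and coordinates are those of RefSeq on GRCm38.p6.

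Genes with more than 5 CPM in at least 2 libraries were kept and scaled by TMM, and 1 quasi-likelihood model with a mean per group was fitted over all libraries of an experiment with edgeR 4.0.16 in R 4.3.3. The method section of the study names edgeR with an adjusted p under 0.05 and a 1.5-fold change, which were used here. DESeq2 1.42.0 was an alternative. Values after ± are standard errors of the log2 fold change, and CPM are TMM-scaled. On simulated counts for KCl 180 min against basal over 12023 genes, 61% of 100 genes with a 2-fold change and 82.8% of 99 with a 4-fold change were recovered, and 7 of 11656 unchanged genes were called.

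Groups came from the sample labels. Named genes were the 15 largest rises and 10 largest falls among called genes without overlap whose average log2 CPM was 3 or more, up to 4 called members of each gene list (or the 2 with the smallest p where none was called), the 5 largest differences in each direction from KCl 15 min, KCl 45 min and Bic 180 min under the same limits, and the genes the study names. Single values of a few genes are not reported here. The comparison and all lists were chosen with earlier results of these data known. Alternatives were another test, tool, scaling, filter and transcript rule, thinning of counts to the smallest library, a replicate block, a fit on the compared groups, the letter of the description as a covariate, and leaving out each library.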

Additional observations from a re-analysis of the deposited data

Results flagged for a closer look

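The effect of KCl at 180 min differed from those of the other stimulations by direct tests of the differences with edgeR. Of 12023 genes tested, 446 differed from KCl 15 min (3.71%), 17 from KCl 45 min (0.141%) and 88 from Bic 180 min (0.732%). In the comparisons with 15 and 45 min the letter in the sample descriptions cannot be told apart from the time. All of these counts fell when 1 library was left out.

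A pair of genes called at KCl 180 min was called in the opposite direction at KCl 15 min against the same basal libraries. Olig2 was at 229.7 and 231 CPM at 15 min and had a log2 fold change of 0.80 there, beside -0.83 at 180 min. Ppp1r15a had a log2 fold change of -0.83 at 15 min and of 1.03 at 180 min. The direct differences between both times were -1.64 ± 0.19 for Olig2 (edgeR adjusted p = 4.50e-07) and 1.86 ± 0.23 for Ppp1r15a (adjusted p = 1.20e-06). The letter in the sample descriptions differed between these times, and within KCl both cannot be told apart.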

How the results depend on the processing

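The 92 calls of KCl 180 min against basal became 179 with the likelihood ratio test, 150 without the filter on low counts, 30 with thinned counts, 43 with counts summed over transcripts, 180 with only the groups compared and 49 with the letter as covariate, and ranged from 23 to 59 without 1 library. Against KCl 15 min, the 446 calls became 184 with thinned counts, 289 summed and 157 with the letter, and ranged from 119 to 188 without 1 library. Against KCl 45 min, the 17 became 44 with the likelihood ratio test, 53 without the filter, 4 thinned, 105 with only the groups compared and 5 with the letter, and were 6 to 7 without 1 library. Against Bic 180 min, the 88 became 150 with the likelihood ratio test, 139 without the filter, 54 thinned, 27 summed and 238 with only the groups compared, and ranged from 21 to 28 without 1 library. The 573 of the maturation experiment became 299 thinned, 360 summed and 349 with only the groups compared, and ranged from 234 to 883 without 1 library. With the letter 97 were called there, in a fit on the 23 DIV libraries alone whose letter term rested on basal replicate 3. Thinning was an alternative chosen for the other comparisons with basal after the data were seen. It gave 434 calls in place of 869 at KCl 15 min, 36 in place of 92 at KCl 45 min and 80 in place of 92 at Bic 180 min. Where a group of 2 lost a library, the other was taken to vary like the other groups. DESeq2 gave 95, 360, 20, 80 and 648 calls in the 5 main comparisons. Thinned and summed counts change the counts tested, and fewer libraries leave fewer samples. In the stimuli experiment the letter term was fitted by basal replicate 5 alone, so the letter fit against basal sets that library aside. For the rest the cause was not tested.

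Replicate numbers 1 and 2 occur in both KCl 180 min and basal, and same-numbered libraries showed little joint deviation (correlations 0.0153 and -0.0078). With only 2 KCl libraries the deviations of 1 mirror those of the other, and KCl replicate 2 gave -0.0153 with basal replicate 1. These correlations therefore cannot decide whether the numbers pair libraries. The basal library with the letter B also carries the number 2 in its description, though not in its title. With a replicate block 60 genes were called against basal, 437 against KCl 15 min, 18 against KCl 45 min, 51 against Bic 180 min and 542 in the maturation experiment, where same-numbered libraries had correlations of -0.257, -0.0961 and -0.0690.

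Of the values of single named genes under these alternatives, 1385 kept direction and side of the threshold, 536 lost the call, 28 gained it and 10 changed sign, none of them in a called gene. Btg2 ranged from -0.11 to 0.25 without 1 library (-0.10 without basal replicate 1). Ptgs2 was -0.090 with the block and -0.087 with the letter, and ranged from -0.087 to 0.36 without 1 library. Rasl11a was -0.23 thinned and ranged from -0.91 to 0.58 without 1 library. Eif2s3y was 0.021 with the block and ranged from -0.60 to 0.22 without 1 library. Depth limits genes at a few CPM most, where 1 count in the shallowest KCl library is worth 0.81 CPM.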
